A study of Solanum lycopersicum with 36 samples.

Results

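Described here are 7 tomato genes of sucrose and starch turnover, taken from the deposited table by their identifiers, 7 of 29285 genes in all. They are the vacuolar invertase Solyc03g083910, the cell wall invertase LIN6 (Solyc10g083290), the sucrose synthases SUS1 (Solyc12g009300) and SUS3 (Solyc07g042550), the sucrose phosphate synthase Solyc07g007790, and the beta-amylases Solyc08g007130 and Solyc09g091030. All 7 identifiers were found, and all 7 passed the filter on low values in both experiments. The names came with the list, and nothing in the files ties them to the identifiers.

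Poly(A) RNA was sequenced from the third and the fourth leaf of plants of the dwarf cultivar Micro-Tom that were about a month old. The line SGT2ox was set beside a wild type of its own, and the line SGT1ami beside another wild type, in 2 experiments run independently. Each of these 4 genotypes was sampled at 0, 3 and 24 h with 3 libraries, so that 36 libraries fall into 12 groups. SGT1 and SGT2 are known as sterol glycosyltransferases, which attach a sugar to membrane sterols; the suffixes are read here as an artificial microRNA against SGT1 and as overexpression of SGT2. Promoters and the number of independent lines were not given in the sources used here. Plants either stayed in standard conditions or went into a cold growth chamber, and samples of both kinds were taken, but a sample's title tells its hour and not its temperature. A difference from 0 h is therefore called a change with time. At 3 h, hour of day and treatment cannot be told apart. By the titles 24 h falls a full day after 0 h, though they give no clock time. Time passed and treatment cannot be told apart there. The triplicates are described as biologically independent.

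Sucrose is the sugar that most leaves export. Sucrose phosphate synthase makes its phosphorylated precursor. Invertases split sucrose irreversibly into glucose and fructose, in the vacuole or in the cell wall, whereas sucrose synthase cleaves it with UDP in a reversible step. Beta-amylases release maltose from starch, and in Arabidopsis leaves they act in the nightly breakdown of chloroplast starch. Soluble sugars are known to accumulate in cold leaves of many plants, and in Arabidopsis beta-amylase transcripts are known to rise in the cold. LIN6 is known in tomato as an extracellular invertase whose transcript responds to sugars, wounding and stress signals.

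Each library held 36602841 to 43742623 reads, and 23650 to 24345 genes had at least 1 read. Levels are normalised reads, the count of a gene over the size factor of its library. The 7 genes had between 53 reads (LIN6) and 36560 reads (SUS3) in a library. No gene lengths were available, so levels are compared between groups and not between genes. SUS1 and SUS3 are paralogs, and whether they share reads was not examined. In leaf RNA, fewer cells of a type and less RNA per cell cannot be told apart, and no leaf marker had a known identifier, so the tissue was not checked. Log2 fold changes, their SE and adjusted p-values come from limma, with the Benjamini-Hochberg method over all tested genes, and a gene is called at an adjusted p under 0.05.

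The labels were checked first on the targeted genes, by identifiers written from memory that no table used here pairs with their names. The gene taken for SGT2 (Solyc09g061860) averaged 26662 ± 248, 54155 ± 512 and 44063 ± 467 normalised reads at 0, 3 and 24 h in SGT2ox, against 995 ± 59.4, 1624 ± 22.1 and 1372 ± 18.8 in its wild type (SD, n = 3). The gene taken for SGT1 (Solyc06g007980) averaged 2435 ± 69.7, 2373 ± 95.1 and 6173 ± 51.3 in SGT1ami, against 7845 ± 112, 5948 ± 198 and 6685 ± 214 in its wild type. It was thus low in SGT1ami at 0 and 3 h and near the wild type in the libraries labelled SGT1ami at 24 h. A count that needs no names gave the same picture: 8 genes lay at 100 or more in SGT1ami and at 10 or less in its wild type at both 0 and 3 h, and at 24 h 0 of these 8 were still 10-fold apart, where 8 of 9 such genes were in the SGT2ox experiment. The libraries at 24 h are therefore named below as labelled SGT1ami. Where lists of values give SGT1ami at 24 h, the libraries so labelled are meant there too. Directions drawn from these libraries rest on a label that these genes go against.

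Across time, both beta-amylases, SUS3 and sucrose phosphate synthase were higher at 3 h than at 0 h in all 4 genotypes, and SUS1 and LIN6 were lower. At 24 h SUS3 was 24.2-fold to 35.4-fold above its 0 h level, and LIN6 had turned from below its 0 h level to above it. The vacuolar invertase and SUS1 were below their 0 h levels at 24 h. These directions at 24 h held in all 4 genotypes as labelled, and for SGT1ami they rest on the doubtful label. The beta-amylase Solyc08g007130 stayed high at 24 h in the SGT2ox experiment and was back near its 0 h level in the SGT1ami experiment. The plot of the libraries shows these courses.

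**Figure D1:**
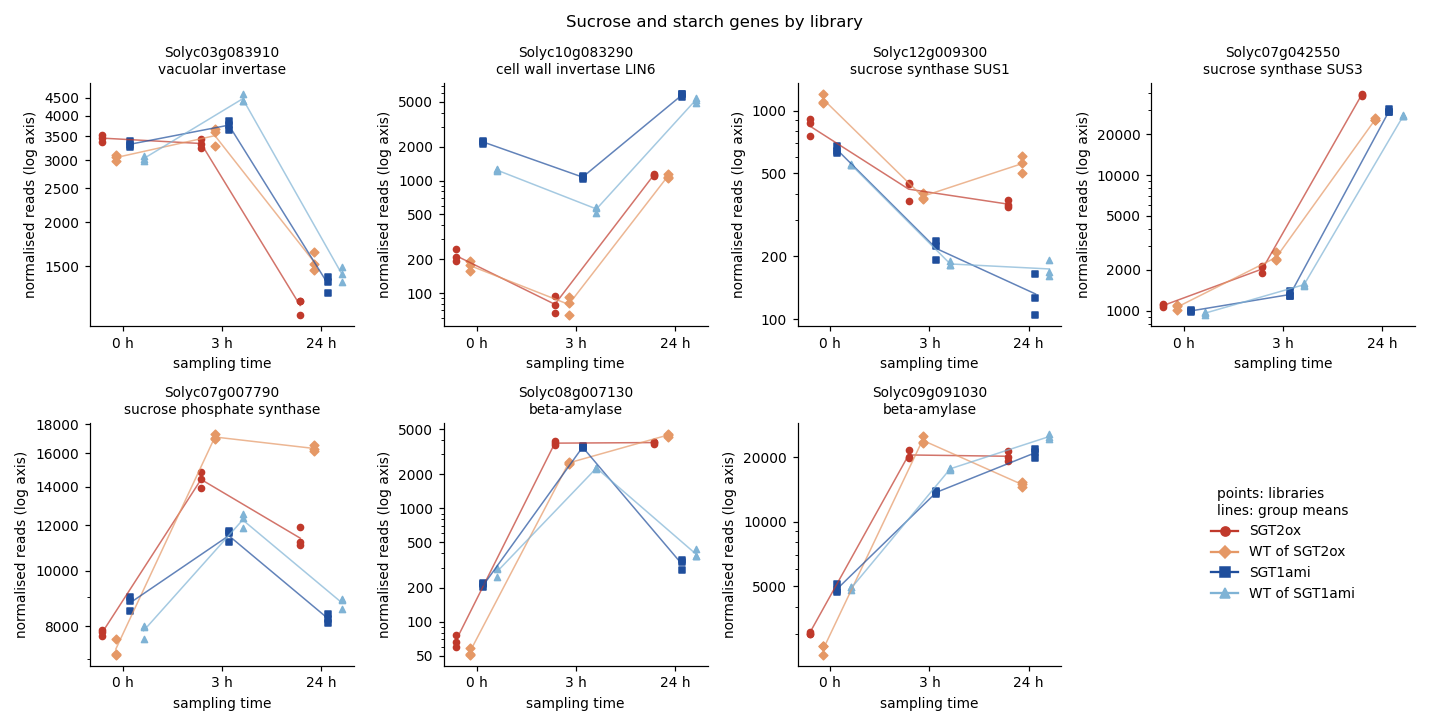
Normalised reads (log axis) of the 7 genes against sampling time (0, 3 and 24 h), with a point for each of the 36 libraries and lines through the means of 3 libraries, in SGT2ox and its wild type (WT) and in SGT1ami and its wild type. SUS3 lay at 936 to 1116 at 0 h and at 25537 to 39575 at 24 h, and the beta-amylase Solyc08g007130 lay at 3725 to 4557 by 24 h in the SGT2ox experiment, but between 285 and 437 in the SGT1ami experiment.

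A large share of all genes changed with time, and the counts are read against it. From 0 h to 3 h in SGT2ox, 6 of 7 genes were called, 4 higher and 2 lower, where 64.8% of the tested genes were called, 33.2% higher and 31.6% lower (19.2% higher and 53.1% lower with library totals). In its wild type over the same 3 h, 7 of 7 genes were called, 5 higher and 2 lower, where 66.3% of the tested genes were called, 35.0% higher and 31.3% lower (17.1% higher and 59.3% lower with library totals). In SGT1ami over 3 h, 7 of 7 genes were called, 5 higher and 2 lower, where 62.2% of the tested genes were called, 30.5% higher and 31.7% lower (21.8% higher and 45.9% lower with library totals). In the SGT1ami wild type, 7 of 7 genes were called, 5 higher and 2 lower, where 62.7% of the tested genes were called, 30.9% higher and 31.8% lower (21.1% higher and 47.8% lower with library totals). With backgrounds of 62.2% to 66.3%, being called at 3 h was common, and the members' counts say little by themselves. The median size of the log2 change at 3 h was 1.01 over the 7 genes in SGT2ox, 1.23 in its wild type, 1.03 in SGT1ami and 1.15 in the SGT1ami wild type, beside 0.46, 0.47, 0.38 and 0.39 over all tested genes in the same genotypes. The 7 genes were chosen with earlier results of these data known, so such counts and medians, here and below, only describe them. The tested genes behind each share were not matched to the 7 genes in level, and small differences are called more readily at high levels.

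Over 24 h the background was higher still. In SGT2ox 7 of 7 genes were called, 5 higher and 2 lower, where 81.1% of the tested genes were called, 40.3% higher and 40.8% lower. In its wild type 7 of 7 genes were called, 5 higher and 2 lower, where 79.1% of the tested genes were called, 39.5% higher and 39.6% lower (30.6% higher and 50.5% lower with library totals). In the libraries labelled SGT1ami 7 of 7 genes were called, 4 higher and 3 lower, where 82.8% of the tested genes were called, 42.7% higher and 40.1% lower (27.3% higher and 58.6% lower with library totals). In the SGT1ami wild type 7 of 7 genes were called, 5 higher and 2 lower, where 82.4% of the tested genes were called, 42.6% higher and 39.8% lower (25.8% higher and 60.6% lower with library totals). The median size of the change over the 7 genes was 2.39, 2.55, 1.38 and 1.66 in the same order of genotypes, beside 0.83, 0.75, 0.85 and 0.86 over all tested genes. Between 3 and 24 h, 5 of 7 genes were called in SGT2ox, where 81.3% of all tested genes were, and 6 of 7 in its wild type, where 79.8% were. Likewise 7 of 7 were called in the libraries labelled SGT1ami, where 82.3% were, and 6 of 7 in the SGT1ami wild type, where 81.4% were. Library totals, which scale each library by its sum of reads, moved the median change of all genes by -0.33, -0.47, -0.20 and -0.22 on the log2 scale by 3 h, and by -0.20, -0.27, -0.54 and -0.62 at 24 h, in the same order of genotypes. Values under library totals are therefore given below where they turn a direction, end or make a call, or move a called value by over 1.5 times; small values that were not called moved by more than that in places.

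The vacuolar invertase (Solyc03g083910), which splits sucrose stored in the vacuole, was lower at 24 h in all 4 genotypes as labelled. SGT2ox libraries held 3536, 3378 and 3469 at 0 h, 3442, 3329 and 3254 at 3 h, and 1196, 1095 and 1198 by 24 h. Its wild type held 3066, 3093 and 2985 at 0 h, 3596, 3286 and 3669 at 3 h, and 1521, 1463 and 1651 by 24 h. The values at 24 h lay below all those at 0 and 3 h in both, and in SGT2ox those at 0 and 3 h overlapped. In SGT1ami the values were 3303, 3404 and 3263 at 0 h, 3660.0, 3776 and 3863 at 3 h, and 1259, 1359.6 and 1397 by 24 h. The SGT1ami wild type held 2977, 3082 and 3023 at 0 h, 4408, 4616 and 4393 at 3 h, and 1428, 1498 and 1359 by 24 h. Here the 3 h values were the highest in both genotypes, and no times overlapped. The level at 24 h was 2.98-fold below that at 0 h in SGT2ox and 1.97-fold in its wild type, 2.48-fold in the libraries labelled SGT1ami and 2.12-fold in their wild type.

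As log2 changes, the fall of the vacuolar invertase by 24 h was -1.57 (SE 0.05, limma adjusted p = 1.5e-20) in SGT2ox, -0.98 (SE 0.05, limma adjusted p = 7e-16) in its wild type, -1.31 (SE 0.04, limma adjusted p = 1.4e-21) in the libraries labelled SGT1ami and -1.08 (SE 0.04, limma adjusted p = 1.4e-19) in the SGT1ami wild type. With library totals the change in the SGT1ami wild type was -1.71. At 3 h the log2 change was -0.05 in SGT2ox, which was not called (95% interval -0.15 to 0.05, limma adjusted p = 0.39), and 0.20 (SE 0.05, limma adjusted p = 0.00081) in its wild type. It was 0.18 (SE 0.04, limma adjusted p = 0.00042) in SGT1ami and 0.56 (SE 0.04, limma adjusted p = 1.5e-12) in the SGT1ami wild type. The direction at 3 h hung on the scaling, since library totals gave -0.39 in SGT2ox, -0.28 in its wild type, -0.02 in SGT1ami and 0.34 in the SGT1ami wild type, with the change in SGT2ox then called and that in SGT1ami no longer called. Over the 12 groups the means ran from 1163 in SGT2ox at 24 h to 4473 in the SGT1ami wild type at 3 h, and in 7 of the 11 pairs of neighbours in that order the libraries overlapped.

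LIN6 (Solyc10g083290), the cell wall invertase, took the opposite course at 24 h, with a dip at 3 h before it. In SGT2ox the values were 248, 207 and 191 at 0 h, 65.9, 78.5 and 93.9 at 3 h, and 1131, 1091 and 1156 by 24 h. The wild type of that experiment held 193, 159 and 176 at 0 h, 64.1, 92.1 and 81.5 at 3 h, and 1152, 1048 and 1080.2 by 24 h. In both, the times did not overlap, with the lowest values at 3 h and the highest at 24 h. SGT1ami libraries held 2202, 2259 and 2137 at 0 h, 1086, 1106 and 1030.0 at 3 h, and 5899, 5484 and 5842 by 24 h. Its wild type held 1267, 1209 and 1230.5 at 0 h, 519, 575 and 583 at 3 h, and 5464, 5218 and 4891 by 24 h. The order of the times was the same as in the SGT2ox experiment, at levels several times as high. The group means ran over a 72.5-fold range, from 79.2 in the SGT2ox wild type at 3 h to 5741 in those labelled SGT1ami at 24 h, and 4 of the 11 pairs of neighbours overlapped.

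LIN6 fell at 3 h in all 4 genotypes, with log2 changes of -1.43 (SE 0.13, limma adjusted p = 4.2e-10) in SGT2ox, -1.15 (SE 0.13, limma adjusted p = 2.4e-08) in its wild type, -1.03 (SE 0.05, limma adjusted p = 5.2e-17) in SGT1ami and -1.14 (SE 0.05, limma adjusted p = 4.2e-18) in the SGT1ami wild type. By 24 h it rose, with log2 changes of 2.39 (SE 0.13, limma adjusted p = 5.1e-15) in SGT2ox, 2.63 (SE 0.13, limma adjusted p = 6.9e-16) in its wild type, 1.38 (SE 0.05, limma adjusted p = 1.4e-20) in the libraries labelled SGT1ami and 2.07 (SE 0.05, limma adjusted p = 7.3e-25) in the SGT1ami wild type. These are rises of 5.23-fold, 6.21-fold, 2.61-fold and 4.20-fold over the 0 h level in the same order. With library totals the rise in the libraries labelled SGT1ami was 0.85 on the log2 scale. From 3 h to 24 h the level rose 14.2-fold in SGT2ox, 13.8-fold in its wild type, 5.35-fold in the libraries labelled SGT1ami and 9.29-fold in the SGT1ami wild type.

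The sucrose synthases, which cleave sucrose to UDP-glucose and fructose, moved in opposite directions. SUS1 (Solyc12g009300) held 874, 909 and 751 at 0 h, 447, 369 and 444 at 3 h, and 373, 343 and 352 by 24 h in SGT2ox. In its wild type it held 1201, 1087 and 1102 at 0 h, 378, 405 and 380.1 at 3 h, and 563, 602 and 502 by 24 h. Every value at 3 and 24 h lay below those at 0 h in both genotypes. In SGT1ami the values of SUS1 were 625, 638 and 679 at 0 h, 225, 191 and 238 at 3 h, and 105, 127 and 165 by 24 h. In the SGT1ami wild type they were 552, 550.1 and 546 at 0 h, 181, 181 and 189.8 at 3 h, and 168, 192 and 162 by 24 h. The 0 h values were again the highest, and in the SGT1ami wild type those at 3 and 24 h overlapped. The highest mean was 1129.9 (SGT2ox wild type, 0 h), the lowest 132 (labelled SGT1ami, 24 h), and 4 of the 11 pairs of neighbours overlapped.

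SUS1 fell by 3 h, with log2 changes of -1.01 (SE 0.09, limma adjusted p = 8.1e-11) in SGT2ox, -1.54 (SE 0.09, limma adjusted p = 1e-14) in its wild type, -1.57 (SE 0.12, limma adjusted p = 4.3e-12) in SGT1ami and -1.57 (SE 0.12, limma adjusted p = 3.8e-12) in the SGT1ami wild type. At 24 h it was below 0 h by log2 changes of -1.24 (SE 0.09, limma adjusted p = 5.8e-13) in SGT2ox, -1.03 (SE 0.09, limma adjusted p = 3.3e-11) in its wild type, -2.31 (SE 0.12, limma adjusted p = 2.7e-16) in the libraries labelled SGT1ami and -1.66 (SE 0.12, limma adjusted p = 5.1e-13) in the SGT1ami wild type. From 3 h to 24 h it rose in the SGT2ox wild type by 0.52 (SE 0.09, limma adjusted p = 6.1e-06), and its log2 change in SGT2ox was -0.23 (SE 0.09, limma adjusted p = 0.017). That last call ended without SGT2ox 3 h replicate 1, 3 h replicate 3 or 24 h replicate 2, when the change was between -0.21 and -0.18, and it ended too with library totals (-0.09) and with DESeq2 (-0.20). SUS1 fell further after 3 h in the libraries labelled SGT1ami, with a log2 change of -0.74 (SE 0.12, limma adjusted p = 3.2e-06), and in their wild type the change of -0.08 was not called (95% interval -0.33 to 0.17, limma adjusted p = 0.53; -0.48 and called with library totals).

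SUS3 (Solyc07g042550) rose at both times, and far more by 24 h. In SGT2ox its values were 1116, 1068 and 1106 at 0 h, 2127, 1887 and 2097 at 3 h, and 38863, 38038 and 39575 by 24 h. The SGT2ox wild type held 1016, 1105 and 1078 at 0 h, 2398, 2351 and 2694 at 3 h, and 25604, 25537 and 26141 by 24 h. Within each genotype the times were well apart. SGT1ami libraries held 1007, 1015 and 979 at 0 h, 1284, 1391 and 1289 at 3 h, and 29304, 29363 and 30640.4 by 24 h. The SGT1ami wild type held 983, 966 and 936 at 0 h, 1524, 1615 and 1540.3 at 3 h, and 27041, 27485 and 27087 by 24 h. At 0 h all libraries lay between 936 and 1116, and most of the rise came after 3 h. Over 24 h the level rose 35.4-fold in SGT2ox, 24.2-fold in its wild type, 29.8-fold in the libraries labelled SGT1ami and 28.3-fold in the SGT1ami wild type.

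The log2 changes of SUS3 by 24 h were 5.15 (SE 0.05, limma adjusted p = 8.9e-32) in SGT2ox, 4.59 (SE 0.05, limma adjusted p = 8.3e-31) in its wild type, 4.89 (SE 0.04, limma adjusted p = 1.6e-36) in the libraries labelled SGT1ami and 4.82 (SE 0.04, limma adjusted p = 1.7e-36) in the SGT1ami wild type. At 3 h they were 0.89 (SE 0.05, limma adjusted p = 6.6e-15) in SGT2ox, 1.22 (SE 0.05, limma adjusted p = 6.8e-18) in its wild type, 0.40 (SE 0.04, limma adjusted p = 1e-10) in SGT1ami and 0.70 (SE 0.04, limma adjusted p = 4.8e-16) in the SGT1ami wild type. Library totals gave, at 3 h, 0.55 in SGT2ox, 0.74 in its wild type, 0.20 in SGT1ami and 0.47 in the SGT1ami wild type. In the order of the 12 group means, the 4 groups at 24 h came first, the 4 at 3 h next and the 4 at 0 h last, and the only overlaps were between line and wild type at 0 h, in each experiment (2 of 11 pairs of neighbours).

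Sucrose phosphate synthase (Solyc07g007790), on the route that makes sucrose, rose at 3 h in all 4 genotypes and parted between the experiments at 24 h. SGT2ox libraries held 7801, 7691 and 7866 at 0 h, 13913, 14464 and 14867 at 3 h, and 11069, 11209 and 11892 by 24 h. Its wild type held 7159, 7601 and 7135 at 0 h, 17038, 16920.4 and 17310.0 at 3 h, and 16256, 16544 and 16166 by 24 h. In SGT2ox the 24 h values lay between those of 0 and 3 h, and in the wild type they lay just under those of 3 h. SGT1ami libraries held 8512, 8980.2 and 8835 at 0 h, 11611, 11705 and 11195 at 3 h, and 8105, 8248 and 8401 by 24 h. Their wild type held 7986, 7587 and 7992 at 0 h, 12353, 12548 and 11863 at 3 h, and 8885, 8921 and 8568 by 24 h. In this experiment the level had come back to near that of 0 h by 24 h. The 12 means spanned only a 2.34-fold range, from 7298 to 17089.6 in the SGT2ox wild type at 0 and 3 h, and 3 of the 11 pairs of neighbours overlapped.

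At 3 h the log2 changes of sucrose phosphate synthase were 0.89 (SE 0.04, limma adjusted p = 9.5e-18) in SGT2ox, 1.23 (SE 0.04, limma adjusted p = 6.7e-21) in its wild type, 0.39 (SE 0.03, limma adjusted p = 6.6e-12) in SGT1ami and 0.64 (SE 0.03, limma adjusted p = 8.8e-17) in the SGT1ami wild type. Library totals kept these as rises, of 0.55 in SGT2ox, 0.75 in its wild type, 0.19 in SGT1ami and 0.42 in the SGT1ami wild type. By 24 h the log2 change was 0.55 (SE 0.04, limma adjusted p = 1.8e-13) in SGT2ox (0.34 with library totals) and 1.16 (SE 0.04, limma adjusted p = 1.2e-20) in its wild type. It was -0.09 (SE 0.03, limma adjusted p = 0.0098) in the libraries labelled SGT1ami and 0.16 (SE 0.03, limma adjusted p = 2.3e-05) in the SGT1ami wild type, where library totals gave -0.62 and -0.46, so that the direction in the wild type turned. With edgeR on the recovered reads these 2 changes were -0.14 and 0.09, and without SGT1ami 0 h replicate 2 the change in the libraries labelled SGT1ami was no longer called (limma adjusted p = 0.055). From 3 to 24 h the gene fell in SGT2ox, with a log2 change of -0.34 (SE 0.04, limma adjusted p = 2.8e-09; -0.20 with library totals). The change of -0.07 in its wild type was not called (95% interval -0.14 to 0.01, limma adjusted p = 0.096) and was 0.15 and called with library totals. It fell too in the SGT1ami experiment, with log2 changes of -0.48 in the libraries labelled SGT1ami and -0.48 in the SGT1ami wild type (SE 0.03 each, limma adjusted p = 2.7e-14 each), or -0.81 and -0.88 with library totals.

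The beta-amylases, which release maltose from starch, both rose at 3 h, and they differed at 24 h. Beta-amylase Solyc08g007130 held 76.3, 59.9 and 66.1 at 0 h, 3956, 3604 and 3744 at 3 h, and 3833, 3881 and 3725 by 24 h in SGT2ox. In the SGT2ox wild type it held 51.8, 51.0 and 58.0 at 0 h, 2464, 2576 and 2524 at 3 h, and 4287, 4482 and 4557 by 24 h. The later values lay far above those at 0 h, and in SGT2ox those at 3 and 24 h overlapped. In SGT1ami the values were 218, 200.2 and 214 at 0 h, 3526, 3486 and 3412 at 3 h, and 353, 285 and 333 by 24 h. In the SGT1ami wild type they were 247, 291 and 295 at 0 h, 2277, 2246 and 2295 at 3 h, and 379.5, 376 and 437 by 24 h. Here the 24 h values were close to those at 0 h, though above them in each genotype. The 12 means spanned an 82.9-fold range, from 53.6 at 0 h to 4442 at 24 h, both in the SGT2ox wild type, and 2 of the 11 pairs of neighbours overlapped.

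By 3 h beta-amylase Solyc08g007130 rose 55.9-fold in SGT2ox, 47.1-fold in its wild type, 16.5-fold in SGT1ami and 8.18-fold in the SGT1ami wild type. The log2 changes were 5.79 (SE 0.07, limma adjusted p = 2.4e-29) in SGT2ox, 5.53 (SE 0.07, limma adjusted p = 5.6e-29) in its wild type, 4.04 (SE 0.08, limma adjusted p = 6.5e-26) in SGT1ami and 3.03 (SE 0.08, limma adjusted p = 4e-23) in the SGT1ami wild type. By 24 h they were 5.81 (SE 0.07, limma adjusted p = 8.1e-30) in SGT2ox, 6.35 (SE 0.07, limma adjusted p = 1.4e-30) in its wild type, 0.61 (SE 0.08, limma adjusted p = 4.6e-08) in the libraries labelled SGT1ami and 0.52 (SE 0.08, limma adjusted p = 8.7e-07) in the SGT1ami wild type. Library totals gave 0.08 in the libraries labelled SGT1ami, where the call ended, and -0.11 in the SGT1ami wild type, where the direction turned and the change was not called. Between 3 and 24 h the gene rose in the SGT2ox wild type by 0.82 (SE 0.07, limma adjusted p = 3.5e-11). The change of 0.02 in SGT2ox was not called (95% interval -0.12 to 0.16, limma adjusted p = 0.82; 0.16 and called with library totals). It fell 10.7-fold in the libraries labelled SGT1ami and 5.72-fold in the SGT1ami wild type, with log2 changes of -3.43 (SE 0.08, limma adjusted p = 5.3e-25) and -2.52 (SE 0.08, limma adjusted p = 9.2e-22).

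Beta-amylase Solyc09g091030 was high at both later times in every genotype, with SGT1ami at 24 h taken as labelled. SGT2ox libraries held 3051, 2986 and 2988 at 0 h, 19927, 20081 and 21538 at 3 h, and 20157, 19137 and 21391 by 24 h. Its wild type held 2389, 2637 and 2620.2 at 0 h, 23599, 23245 and 25255 at 3 h, and 14475, 15359 and 15046 by 24 h. The 3 and 24 h values overlapped in SGT2ox and not in its wild type, where 24 h was the lower. SGT1ami libraries held 4671, 5109.5 and 4788 at 0 h, 13918, 13540.1 and 13701 at 3 h, and 19884, 21978 and 21236 by 24 h. Their wild type held 4926, 4947 and 4786 at 0 h, 17865, 17525 and 17638 at 3 h, and 25756, 24462 and 24845 by 24 h. In this experiment the values went up at each step. The group means ran from 2549 in the SGT2ox wild type at 0 h to 25021 in the SGT1ami wild type at 24 h, and 4 of the 11 pairs of neighbours overlapped.

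The log2 changes of beta-amylase Solyc09g091030 at 3 h were 2.77 (SE 0.04, limma adjusted p = 1.7e-26) in SGT2ox, 3.24 (SE 0.04, limma adjusted p = 6.1e-28) in its wild type, 1.50 (SE 0.03, limma adjusted p = 2.3e-24) in SGT1ami and 1.85 (SE 0.03, limma adjusted p = 1.2e-26) in the SGT1ami wild type. By 24 h they were 2.75 (SE 0.04, limma adjusted p = 7.5e-27) in SGT2ox, 2.55 (SE 0.04, limma adjusted p = 4.4e-26) in its wild type, 2.11 (SE 0.03, limma adjusted p = 9.7e-29) in the libraries labelled SGT1ami and 2.36 (SE 0.03, limma adjusted p = 6.3e-30) in the SGT1ami wild type. From 3 to 24 h it fell in the SGT2ox wild type, with a log2 change of -0.68 (SE 0.04, limma adjusted p = 1.9e-13). The change of -0.02 in SGT2ox was not called (95% interval -0.12 to 0.07, limma adjusted p = 0.68; 0.12 and called with library totals). It rose by 0.62 (SE 0.03, limma adjusted p = 7.4e-16) in the libraries labelled SGT1ami and by 0.50 (SE 0.03, limma adjusted p = 8.4e-14) in the SGT1ami wild type, or by 0.28 and 0.10 with library totals. In the SGT1ami experiment at 24 h, then, Solyc08g007130 was near its 0 h level while Solyc09g091030 was 4.33-fold above it in the libraries labelled SGT1ami and 5.12-fold in the wild type.

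**Figure D2:**
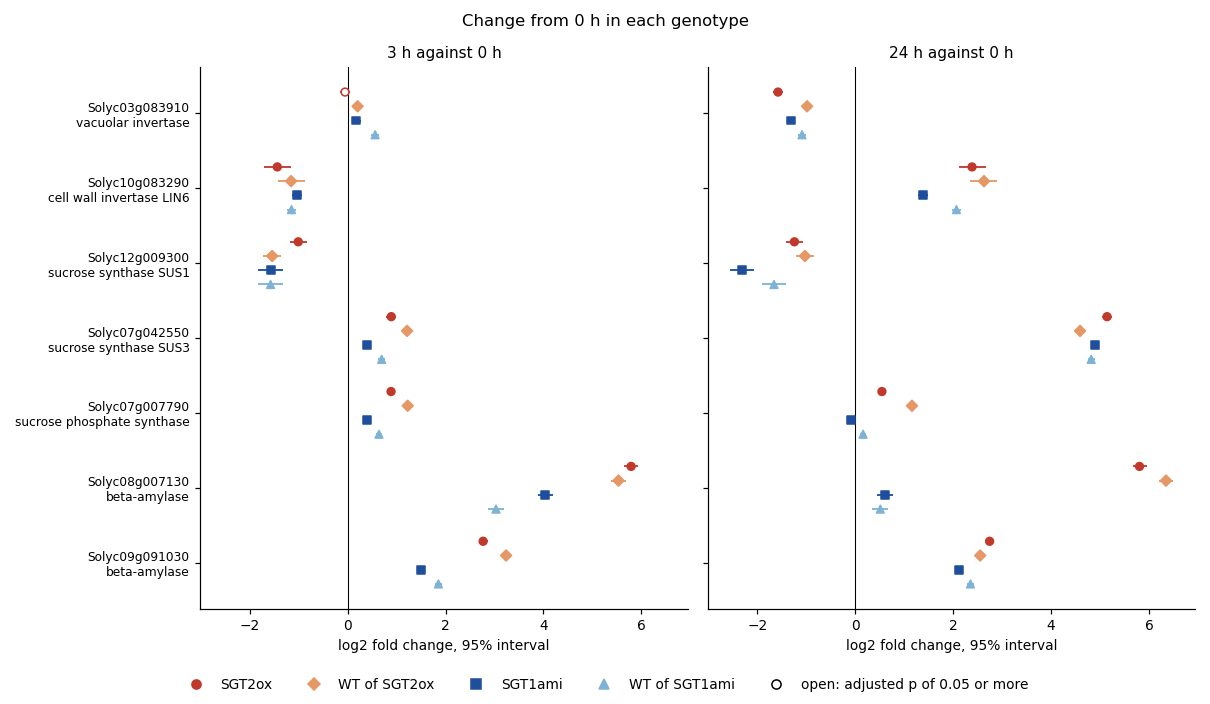
Log2 fold change from 0 h (horizontal axis, with 95% intervals from limma) of the 7 genes at 3 h (left) and at 24 h (right), in SGT2ox, its wild type (WT), SGT1ami and its wild type, with 3 libraries in each group; open symbols were not called. The beta-amylase Solyc08g007130 lies at 5.81 and 6.35 at 24 h in the SGT2ox experiment, but at 0.61 and 0.52 in the SGT1ami experiment, where library totals gave 0.08 and -0.11. The changes of the vacuolar invertase at 3 h in the SGT2ox wild type and in SGT1ami, and of sucrose phosphate synthase at 24 h in the SGT1ami wild type, also turned direction with library totals.

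SGT2ox was compared with its own wild type at each time. None of the 7 genes reached 2-fold. Most tested genes did not either, as their median size of difference was 0.14 to 0.19 on the log2 scale. How the differences of the 7 genes compared with the changes with time varied by gene. At 24 h SUS3 differed by 0.59 on the log2 scale, beside a change of 5.15 from 0 h in SGT2ox. Sucrose phosphate synthase differed by -0.52, beside a change of 0.55. Among the called differences were SUS3, higher in SGT2ox at 24 h, sucrose phosphate synthase, lower in SGT2ox at 24 h, and beta-amylase Solyc08g007130, higher in SGT2ox at 3 h. LIN6 was not called at any time. At 0 h, 4 of 7 genes were called, 3 higher and 1 lower, where 25.5% of the tested genes were called, 14.0% higher and 11.5% lower (9.16% higher and 20.7% lower with library totals). At 3 h, 4 of 7 genes were called, 1 higher and 3 lower, where 17.4% of the tested genes were called, 7.25% higher and 10.1% lower (11.3% higher and 6.67% lower with library totals). At 24 h, 6 of 7 genes were called, 2 higher and 4 lower, where 32.1% of the tested genes were called, 15.1% higher and 17.0% lower. The median size of the difference over the 7 genes on the log2 scale was 0.24, 0.23 and 0.43 at 0, 3 and 24 h, beside 0.16, 0.14 and 0.19 over all tested genes.

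Of the invertases, the vacuolar enzyme was higher in SGT2ox at 0 h by a log2 difference of 0.18 (SE 0.05, limma adjusted p = 0.0076), which library totals brought to 0.10 and out of the called range. At 3 h its difference was -0.07 and not called (95% interval -0.18 to 0.03, limma adjusted p = 0.37; -0.02 with library totals). At 24 h it was lower in SGT2ox, 1196, 1095 and 1198 against 1521, 1463 and 1651 normalised reads in the wild type, a log2 difference of -0.41 (SE 0.05, limma adjusted p = 3.4e-07). LIN6 differed by 0.29 at 0 h (95% interval 0.01 to 0.56, limma adjusted p = 0.13), a difference that was called in the fit of all 36 libraries, by edgeR and by DESeq2, with adjusted p = 0.024, 0.039 and 0.031. Its intervals were -0.27 to 0.28 at 3 h and -0.23 to 0.32 at 24 h (limma adjusted p = 0.99 and 0.85).

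SUS1 was lower in SGT2ox at 0 h, with 874, 909 and 751 normalised reads against 1201, 1087 and 1102 in the wild type, a log2 difference of -0.42 (SE 0.09, limma adjusted p = 0.00054). It was lower again at 24 h, with a log2 difference of -0.64 (SE 0.09, limma adjusted p = 1.8e-06), and the libraries did not overlap at either time. At 3 h they overlapped, and the difference of 0.11 was not called (95% interval -0.07 to 0.29, limma adjusted p = 0.44). SUS3 had a difference of 0.04 at 0 h that was not called (95% interval -0.06 to 0.14, limma adjusted p = 0.62) and was -0.04 with library totals. It was lower in SGT2ox at 3 h, with a log2 difference of -0.28 (SE 0.05, limma adjusted p = 0.00013) and 1.51-fold higher at 24 h, a log2 difference of 0.59 (SE 0.05, limma adjusted p = 3.7e-10). The 3 SGT2ox libraries at 24 h, at 38038 to 39575 normalised reads, lay above the wild-type libraries at 25537 to 26141.

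Sucrose phosphate synthase differed by 0.09 at 0 h, which was not called in the fit of this experiment (95% interval 0.02 to 0.17, limma adjusted p = 0.06). It was called without the SGT2ox wild type 0 h replicate 2 (limma adjusted p = 0.026), in the fit of all 36 libraries (limma adjusted p = 0.03) and by DESeq2 (adjusted p = 0.047). With library totals it was 0.01 and not called (limma adjusted p = 0.85). It was lower in SGT2ox at 3 h, with a log2 difference of -0.25 (SE 0.04, limma adjusted p = 1.5e-05) and at 24 h, with a log2 difference of -0.52 (SE 0.04, limma adjusted p = 1.5e-11), a 1.43-fold lower level at 24 h. The SGT2ox libraries held 11069, 11209 and 11892 at 24 h against 16256, 16544 and 16166 in the wild type, without overlap. SUS3 and sucrose phosphate synthase were thus both lower in SGT2ox at 3 h and lay on opposite sides of the wild type at 24 h.

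Beta-amylase Solyc08g007130 was higher in SGT2ox at 3 h, with 3956, 3604 and 3744 normalised reads against 2464, 2576 and 2524, 1.49-fold or a log2 difference of 0.58 (SE 0.07, limma adjusted p = 6.7e-07). At 0 h it was higher by 0.32 (SE 0.07, limma adjusted p = 0.00096), a call that edgeR (adjusted p = 0.06), DESeq2 (adjusted p = 0.075) and a limma fit of only the groups compared (adjusted p = 0.2) did not make, at 59.9 to 76.3 normalised reads against 51.0 to 58.0. At 24 h it was lower, with a log2 difference of -0.22 (SE 0.07, limma adjusted p = 0.016), and this call ended without SGT2ox 24 h replicate 3 or without the wild type 24 h replicate 2 or 3, when the difference was -0.21 or -0.20. Beta-amylase Solyc09g091030 was higher in SGT2ox at 0 h by 0.24 (SE 0.04, limma adjusted p = 0.00022), lower at 3 h, with a log2 difference of -0.23 (SE 0.04, limma adjusted p = 0.00066) and higher at 24 h by 0.43 (SE 0.04, limma adjusted p = 2.5e-08). Its libraries overlapped at none of the times.

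SGT1ami was compared with its wild type in the same way. LIN6 was higher in SGT1ami at 0 and 3 h, 1.78-fold and 1.92-fold above the wild type, and beta-amylase Solyc08g007130 was higher in SGT1ami at 3 h and lower at 0 h. At 24 h the libraries labelled SGT1ami differed from the wild type by at most 0.42 on the log2 scale in any of the 7 genes. At 0 h, 4 of 7 genes were called, 3 higher and 1 lower, where 19.1% of the tested genes were called, 10.6% higher and 8.53% lower. At 3 h, 6 of 7 genes were called, 2 higher and 4 lower, where 28.1% of the tested genes were called, 13.8% higher and 14.3% lower (16.2% higher and 12.1% lower with library totals). At 24 h, 6 of 7 genes were called, 2 higher and 4 lower, where 22.1% of the tested genes were called, 6.91% higher and 15.2% lower (15.5% higher and 7.17% lower with library totals). The count at 24 h dropped to 3 of 7 with library totals, without SGT1ami 24 h replicate 1 or without the wild type 24 h replicate 2. The median size of the difference was 0.16, 0.25 and 0.15 over the 7 genes at 0, 3 and 24 h, beside 0.12, 0.15 and 0.14 over all tested genes.

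LIN6 held 2202, 2259 and 2137 normalised reads in SGT1ami at 0 h against 1267, 1209 and 1230.5 in the wild type, a log2 difference of 0.83 (SE 0.05, limma adjusted p = 1.9e-13). At 3 h it held 1086, 1106 and 1030.0 against 519, 575 and 583, a difference of 0.94 (SE 0.05, limma adjusted p = 1e-14). Every SGT1ami library lay above every wild-type library at both times. At 24 h, as labelled, the difference was 0.15 (SE 0.05, limma adjusted p = 0.028; 0.24 with library totals), a call that ended without SGT1ami 24 h replicate 1 or 3, without the wild type 24 h replicate 2 or 3 (differences of 0.10 to 0.15) and in the fit of all 36 libraries (limma adjusted p = 0.34). The vacuolar invertase was higher in SGT1ami at 0 h by 0.13 (SE 0.04, limma adjusted p = 0.02), a call that ended without SGT1ami 0 h replicate 2 or without the wild type 0 h replicate 1 or 3 (differences of 0.12 to 0.13). It was lower at 3 h, with a log2 difference of -0.25 (SE 0.04, limma adjusted p = 3.2e-05), and in the libraries labelled SGT1ami at 24 h its difference of -0.09 was not called (95% interval -0.18 to -0.01, limma adjusted p = 0.11). Without replicate 3 of either group at 24 h it was called (-0.13 each). With library totals it was -0.00 and not called (limma adjusted p = 0.96).

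SUS1 was not called at 0 or 3 h, with log2 differences of 0.24 and 0.24 (95% intervals -0.01 to 0.48 and -0.01 to 0.49, limma adjusted p = 0.2 and 0.15). At 0 h it was called by edgeR (adjusted p = 0.043), by DESeq2 (adjusted p = 0.031) and in a limma fit of only the groups compared (adjusted p = 0.005). At 24 h, as labelled, SUS1 was lower in SGT1ami, with a log2 difference of -0.42 (SE 0.12, limma adjusted p = 0.013), with overlapping libraries. That call ended without SGT1ami 24 h replicate 1 (-0.26) or the wild type 24 h replicate 2 (-0.34), with library totals (-0.33) and in a fit of only the groups compared (limma adjusted p = 0.051). SUS3 was not called at 0 h (0.06, 95% interval -0.02 to 0.13, limma adjusted p = 0.32) and was lower in SGT1ami at 3 h, with a log2 difference of -0.24 (SE 0.04, limma adjusted p = 6.7e-06). At 24 h it was higher in the libraries labelled SGT1ami by 0.13 (SE 0.04, limma adjusted p = 0.0091; 0.22 with library totals), a call that ended without SGT1ami 24 h replicate 3 (0.11).

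Sucrose phosphate synthase was higher in SGT1ami at 0 h by 0.16 (SE 0.03, limma adjusted p = 0.00028) and lower at 3 h, with a log2 difference of -0.09 (SE 0.03, limma adjusted p = 0.026). The call at 3 h ended without SGT1ami 3 h replicate 3, without the wild type 3 h replicate 1 or 2, and with library totals, with differences of -0.09 to -0.07. At 24 h, as labelled, the difference of -0.09 (SE 0.03, limma adjusted p = 0.032) was not called without SGT1ami replicate 1 or 2 or wild type replicate 1 or 2 of that time, with TMM scaling (-0.07) or with library totals (-0.00). At each time the means lay within 1.12-fold of each other.

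Beta-amylase Solyc08g007130 held 3526, 3486 and 3412 normalised reads in SGT1ami at 3 h against 2277, 2246 and 2295 in the wild type, a log2 difference of 0.61 (SE 0.08, limma adjusted p = 5.5e-07). At 0 h it held 218, 200.2 and 214 against 247, 291 and 295, a difference of -0.40 (SE 0.08, limma adjusted p = 0.00038). SGT1ami was thus below its wild type at 0 h and above it at 3 h, without overlap at either time. In the libraries labelled SGT1ami at 24 h the gene was lower, with a log2 difference of -0.30 (SE 0.08, limma adjusted p = 0.0058), a call that ended without SGT1ami 24 h replicate 2 (-0.21) or the wild type 24 h replicate 3 (-0.23) and with library totals (-0.21). Beta-amylase Solyc09g091030 was not called at 0 h (-0.01, 95% interval -0.08 to 0.06, limma adjusted p = 0.9). It was lower in SGT1ami at 3 h, with a log2 difference of -0.37 (SE 0.03, limma adjusted p = 1.9e-09) and in the libraries labelled SGT1ami at 24 h, with a log2 difference of -0.25 (SE 0.03, limma adjusted p = 2.4e-06; -0.16 with library totals).

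**Figure D3:**
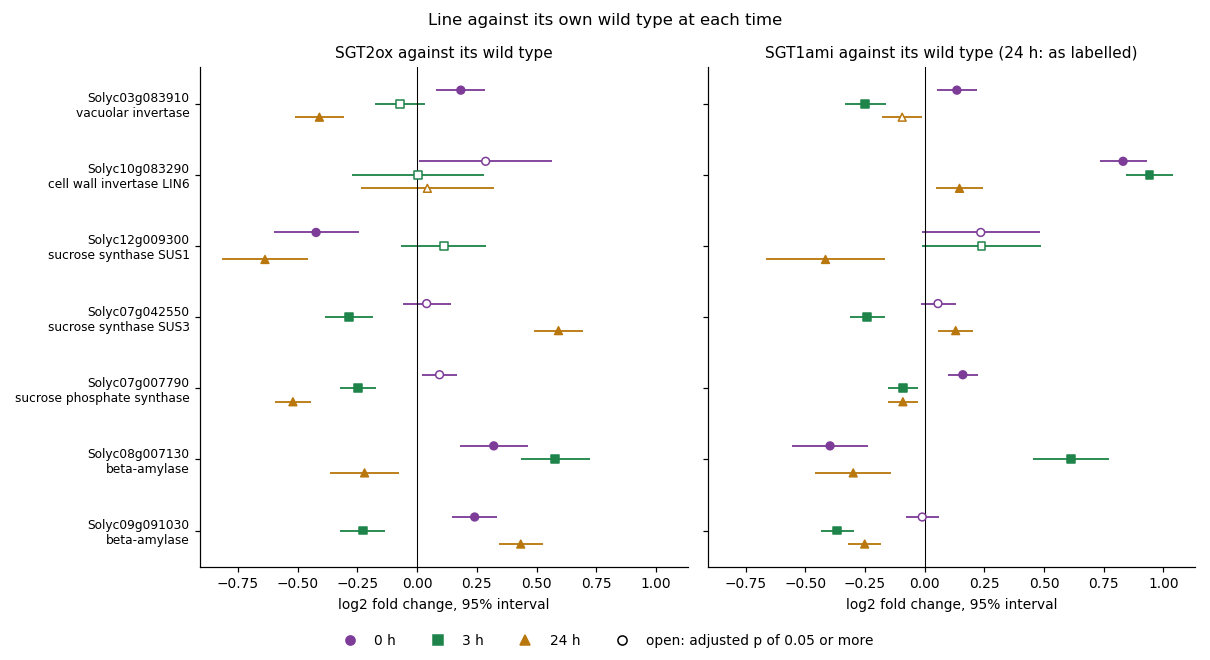
Log2 fold change of each line against its own wild type (horizontal axis, with 95% intervals from limma) of the 7 genes at 0, 3 and 24 h, for SGT2ox (left) and SGT1ami (right, 24 h as labelled), with 3 libraries in each group; open symbols were not called. LIN6 lies at 0.83 and 0.94 at 0 and 3 h and at 0.15 at 24 h on the right, and SUS3 lies at 0.59 at 24 h on the left. The difference of SUS3 in SGT2ox at 0 h, which was not called, changed sign with library totals (0.04 and -0.04).

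Whether a gene changed differently in line and wild type was tested as the difference of their log2 changes from 0 h. In SGT2ox 5 of 7 genes were called, where 18.1% of the tested genes were, over 3 h, and 5 of 7 genes were called, where 23.3% of the tested genes were, over 24 h. Of the calls over all genes at 3 h, 38.1% were higher, against 74.5% with library totals. Of the calls over all genes at 24 h, 43.1% were higher, against 58.2% with library totals. In the SGT2ox experiment the largest called differences were those of sucrose phosphate synthase, the vacuolar invertase, SUS3 and beta-amylase Solyc08g007130 at 24 h. In SGT1ami 5 of 7 genes were called, where 20.3% of the tested genes were, over 3 h, and 5 of 7 genes were called, where 23.5% of the tested genes were, over 24 h as labelled. Of the calls over all genes at 3 h, 44.5% were higher, against 51.3% with library totals. At 24 h 34.5% of them were higher, against 59.6% with library totals. Here the largest were those of beta-amylase Solyc08g007130 at 3 h and of LIN6 and SUS1 at 24 h.

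Sucrose phosphate synthase gained less in SGT2ox than in its wild type, with a log2 difference of -0.34 (SE 0.05, limma adjusted p = 2.2e-05) at 3 h (-0.20 with library totals) and with a log2 difference of -0.61 (SE 0.05, limma adjusted p = 1.1e-09) at 24 h. The vacuolar invertase fell further in SGT2ox by 24 h, with a log2 difference of -0.59 (SE 0.07, limma adjusted p = 4.4e-07). At 3 h its difference was -0.26 (SE 0.07, limma adjusted p = 0.011), which library totals brought to -0.12 and ended as a call. SUS3 gained less in SGT2ox by 3 h, -0.32 (SE 0.07, limma adjusted p = 0.0013), a call that also ended with library totals (-0.19). It gained more by 24 h, 0.55 (SE 0.07, limma adjusted p = 9.4e-07). SUS1 fell less in SGT2ox by 3 h, with a difference of 0.53 (SE 0.12, limma adjusted p = 0.0025), and its difference at 24 h, -0.21, was not called (95% interval -0.47 to 0.04, limma adjusted p = 0.23).

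Beta-amylase Solyc08g007130 gained less in SGT2ox than in its wild type by 24 h, -0.54 (SE 0.10, limma adjusted p = 0.00016). Its difference at 3 h, 0.26, was not called (95% interval 0.06 to 0.46, limma adjusted p = 0.071), but it was called without SGT2ox 0 h replicate 1 (0.35), with a pseudocount of 5 (0.28) and with library totals (0.39). Beta-amylase Solyc09g091030 gained less by 3 h, -0.47 (SE 0.06, limma adjusted p = 5.8e-06). By 24 h it gained more in SGT2ox, 0.19 (SE 0.06, limma adjusted p = 0.029), a call that ended without any of 6 of the 12 libraries concerned, SGT2ox 0 h replicates 2 and 3 and 24 h replicate 3, and wild type 0 h replicates 2 and 3 and 24 h replicate 1 (0.15 to 0.19). LIN6 was not called at 3 h or 24 h, with intervals of -0.67 to 0.11 and -0.64 to 0.15 (limma adjusted p = 0.35 and 0.4), and its difference at 3 h was -0.28, or -0.14 with library totals.

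In the SGT1ami experiment, beta-amylase Solyc08g007130 gained more in SGT1ami than in its wild type by 3 h, 1.01 (SE 0.11, limma adjusted p = 6.7e-08). Part of this was the lower level of SGT1ami at 0 h, given above. At 24 h, as labelled, its difference of 0.10 was not called (95% interval -0.13 to 0.32, limma adjusted p = 0.6; 0.19 with library totals, also not called). LIN6 had at 3 h a difference of 0.11 that was not called (95% interval -0.03 to 0.25, limma adjusted p = 0.29), and gained less in the libraries labelled SGT1ami by 24 h, -0.69 (SE 0.07, limma adjusted p = 1.3e-08). Most of the latter was the higher level of SGT1ami at 0 h, 0.83 above the wild type, beside 0.15 at 24 h as labelled. SUS1 fell further in the libraries labelled SGT1ami by 24 h, -0.65 (SE 0.17, limma adjusted p = 0.0056), and at 3 h its difference was 0.00 (95% interval -0.35 to 0.35, limma adjusted p = 1).

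Other differences in that experiment were smaller. The vacuolar invertase gained less in SGT1ami by 3 h, -0.38 (SE 0.06, limma adjusted p = 1.4e-05), and fell further by 24 h as labelled, -0.23 (SE 0.06, limma adjusted p = 0.0046), where library totals ended the call (-0.14). SUS3 gained less by 3 h, -0.30 (SE 0.05, limma adjusted p = 6.4e-05), and was not called at 24 h (0.07, 95% interval -0.03 to 0.18, limma adjusted p = 0.34; 0.16 and called with library totals). Sucrose phosphate synthase gained less, with a log2 difference of -0.25 (SE 0.04, limma adjusted p = 7.4e-05) at 3 h and with a log2 difference of -0.25 (SE 0.04, limma adjusted p = 7.1e-05) at 24 h (-0.16 with library totals). Beta-amylase Solyc09g091030 gained less, with a log2 difference of -0.36 (SE 0.05, limma adjusted p = 1.9e-06) at 3 h and with a log2 difference of -0.24 (SE 0.05, limma adjusted p = 0.00035) at 24 h (-0.15 with library totals). SUS3, sucrose phosphate synthase, the vacuolar invertase and beta-amylase Solyc09g091030 were thus called with a lower change from 0 to 3 h than in the wild type in both SGT2ox and SGT1ami, though with library totals the vacuolar invertase and SUS3 were not called in SGT2ox. The share of all tested genes called lower in both lines was not counted, so how common such a joint call is remains unknown.

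A fit over all 36 libraries set the wild types of both experiments against each other. The experiments were run independently, so anything that differed between runs cannot be told apart from the experiment. At 0 h LIN6 was 7.02-fold higher in the SGT1ami wild type and beta-amylase Solyc08g007130 was 5.19-fold higher. SUS1 was 2.06-fold lower. At 0 h, 6 of 7 genes were called, 4 higher and 2 lower, where 66.4% of the tested genes were called, 34.8% higher and 31.6% lower. In the difference of their changes 5 of 7 genes were called, where 52.0% of the tested genes were, over 3 h, and 6 of 7 genes were called, where 53.0% of the tested genes were, over 24 h. Of the calls over all genes at 3 h, 43.9% were higher, against 67.8% with library totals. Of the calls over all genes at 24 h, 51.7% were higher, against 24.6% with library totals.

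LIN6 averaged 1236 ± 29.3 normalised reads in the SGT1ami wild type and 176 ± 17.3 in the SGT2ox wild type at 0 h (SD, n = 3 each), a log2 difference of 2.81 (SE 0.10, limma adjusted p = 3.5e-26). Beta-amylase Solyc08g007130 averaged 278 ± 26.8 and 53.6 ± 3.82 in the same order, a difference of 2.35 (SE 0.08, limma adjusted p = 2.6e-27). Beta-amylase Solyc09g091030 averaged 4886 ± 87.3 and 2549 ± 138, a difference of 0.94 (SE 0.04, limma adjusted p = 1.4e-22). SUS1 averaged 549.6 ± 3.18 and 1129.9 ± 62.1, a difference of -1.04 (SE 0.11, limma adjusted p = 3.2e-11). For these 4 genes and for SUS3 the libraries of the wild types did not overlap. How common that was over all genes was not counted. SUS3 was lower, with a log2 difference of -0.15 (SE 0.04, limma adjusted p = 0.0029) and sucrose phosphate synthase higher by 0.11 (SE 0.03, limma adjusted p = 0.0048) in the SGT1ami wild type. The vacuolar invertase, at -0.01, was not called (95% interval -0.10 to 0.08, limma adjusted p = 0.87) and lay at 0.01 with library totals.

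The wild types had their largest difference of change in beta-amylase Solyc08g007130 over time. Its change by 24 h was lower in the SGT1ami wild type, with a log2 difference of -5.83 (SE 0.11, limma adjusted p = 1.9e-35), and by 3 h, with a log2 difference of -2.50 (SE 0.11, limma adjusted p = 7.9e-23). The means at 3 h were close, 2273 in the SGT1ami wild type and 2521 in the SGT2ox wild type. The value at 3 h was thus mostly the difference of 2.35 at 0 h, which enters the value at 24 h too. Beta-amylase Solyc09g091030 gained less, with a log2 difference of -1.38 (SE 0.06, limma adjusted p = 6.5e-23) at 3 h and with a log2 difference of -0.20 (SE 0.06, limma adjusted p = 0.0043) at 24 h (-0.56 with library totals). Sucrose phosphate synthase gained less, with a log2 difference of -0.59 (SE 0.05, limma adjusted p = 4e-14) at 3 h (-0.33 with library totals) and with a log2 difference of -1.00 (SE 0.05, limma adjusted p = 1.6e-21) at 24 h. SUS3 gained less by 3 h, -0.52 (SE 0.06, limma adjusted p = 1.9e-09; -0.26 with library totals). Its higher change by 24 h, 0.23 (SE 0.06, limma adjusted p = 0.0019), turned to -0.13 with library totals and was then not called. In the vacuolar invertase the difference was 0.36 (SE 0.07, limma adjusted p = 1.2e-05) at 3 h (0.61 with library totals) and -0.10 at 24 h, which was not called (95% interval -0.24 to 0.03, limma adjusted p = 0.19) but was with TMM scaling (-0.16), edgeR (-0.16) and library totals (-0.46).

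LIN6 and SUS1 fell by 3 h in both wild types, with differences of 0.01 and -0.03 that were not called (95% intervals -0.27 to 0.29 and -0.34 to 0.27, limma adjusted p = 0.97 and 0.88); both values changed sign under other settings, among them SUS1 with library totals (0.22), where LIN6 was 0.26 and neither was called. By 24 h LIN6 gained less in the SGT1ami wild type, with a log2 difference of -0.56 (SE 0.14, limma adjusted p = 0.00063), and SUS1 fell further, with a log2 difference of -0.63 (SE 0.15, limma adjusted p = 0.0005). With library totals these were -0.92 and -0.99.

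**Figure D4:**
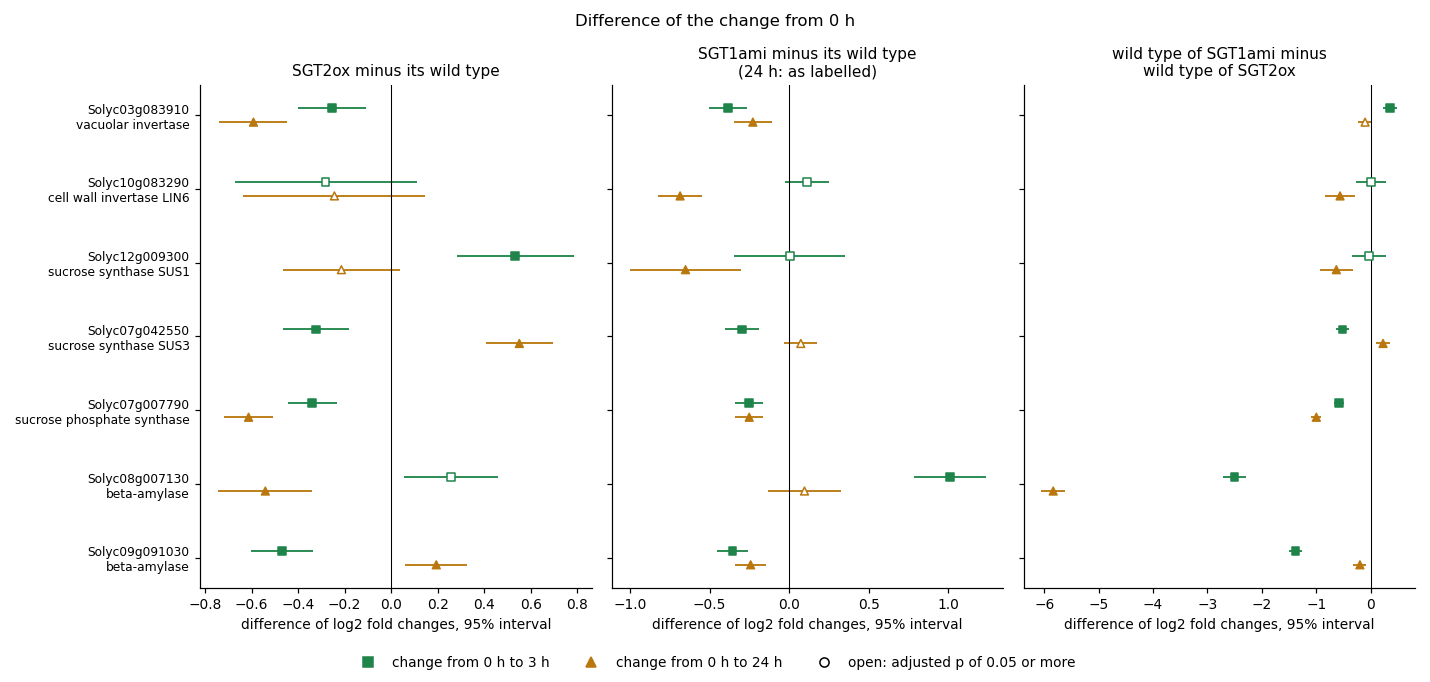
Difference of the log2 changes from 0 h (horizontal axes, on scales of their own, with 95% intervals from limma) of the 7 genes, for SGT2ox minus its wild type (left), SGT1ami minus its wild type (middle, 24 h as labelled) and the SGT1ami wild type minus the SGT2ox wild type (right); open symbols were not called. On the right the beta-amylase Solyc08g007130 lies at -2.50 at 3 h and -5.83 at 24 h, and the 24 h value of SUS3, 0.23, turned to -0.13 with library totals and was then not called. At 0 h this beta-amylase was already 2.35 higher in the SGT1ami wild type on the log2 scale. Among values that were not called, SUS1 at 3 h also changed sign with library totals on the right.

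The courses of the 7 genes over the 12 groups were compared by Pearson's r of log2 group means, as a description over groups that share experiments and times. Of the 21 pairs, 10 had a positive r and 11 a negative one. The vacuolar invertase and SUS3 lay furthest apart (r = -0.94), and SUS1 and beta-amylase Solyc09g091030 next (r = -0.80). Sucrose phosphate synthase and beta-amylase Solyc08g007130 were the most alike (r = 0.89), followed by the pair of beta-amylases (r = 0.78). Both invertases had r = -0.60 with each other and both sucrose synthases r = -0.49. Among 18402 other genes with a mean of at least 50, the courses most like that of beta-amylase Solyc08g007130, the gene with the widest range, were those of Solyc05g007880 (r = 0.98) and Solyc09g083390 (r = 0.98), over the same 12 means. Solyc05g007880 averaged 38.8 ± 10.97, 4416 ± 154 and 2418 ± 145 normalised reads at 0, 3 and 24 h in SGT2ox, and 27.2 ± 1.96, 3432 ± 133 and 2871 ± 29.3 in its wild type (SD, n = 3). In the SGT1ami experiment it averaged 164 ± 18.9, 2727 ± 125 and 528 ± 55.2 in the libraries labelled SGT1ami, and 174 ± 24.4, 2278 ± 94.3 and 486 ± 34.6 in the wild type. Solyc09g083390 averaged 282 ± 37.9, 4378 ± 209 and 3109.6 ± 109.9 in SGT2ox, and 262 ± 28.3, 4417 ± 126 and 3639 ± 86.1 in its wild type. It averaged 738 ± 33.9, 2915 ± 106 and 1123 ± 15.5 in the libraries labelled SGT1ami, and 788 ± 50.1, 3136 ± 28.9 and 1345 ± 37.0 in their wild type. Like the beta-amylase, both stayed high at 24 h in the SGT2ox experiment and came down again in the SGT1ami experiment. This likeness follows from their choice by r over the same 12 means.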

How the data were processed

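Leaf RNA of 36 libraries in 12 groups of 3 was analysed; the titles gave the groups. Trimmomatic, STAR, featureCounts and DESeq2 are named without version or role, per the submitters' processing notes; the build, the annotation and the use of strand were not given in the sources used here. As deposited, each value is a signal that the authors made by dividing counts by the size factor of a library: 100% of the values were within 0.01 of a whole number of reads, and the factors (0.779 to 1.311) equal DESeq2's median-ratio factors. Of values of 2 to 11 reads, 78.8% were even, so mates of a fragment were mostly counted apart, and counting error is larger than the reads imply.

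The main test was limma (3.58.1, with R 4.3.3) with its trend option, on log2(value + 1), which understates changes of low genes. Fits were made per experiment over 18 libraries; genes at 10 or more in at least 3 libraries were tested, 22399 for SGT2ox and 22286 for SGT1ami. The wild types were compared over all 36 libraries (22945 genes). Adjusted p-values follow Benjamini and Hochberg, over all tested genes of a comparison. Group means are of deposited values. The scripts were tested on simulated data. Alternatives were TMM scaling, library totals, a pseudocount of 5, no filter, only the groups compared, all 36 libraries, edgeR 4.0.16 and DESeq2 1.42.0 on recovered reads, a replicate block, a fit without the libraries labelled SGT1ami at 24 h, and leaving out each library. Replicates were not copies of the same counts: their chi-square per gene was 2.62 to 5.99 over 36 pairs. If all mates were counted apart, the smallest value comes to 1.31, little above counting error alone. The check thus cannot tell RNA of separate plants from shared RNA. How much of the spread between plants the SE holds was not tested.

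All 7 genes are named in every comparison. The 2 genes of highest r over the group means were named only for the gene with the widest range, because 0 identifiers were found among 41476 reference genes and other genes would stand without a name. For the same reason the wider pathway list and the leaf markers were not used, and no sequence was read. The genes and lists were chosen with earlier results of these data known.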

Additional observations from a re-analysis of the deposited data

Results flagged for a closer look

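Differences of the change from 0 h between genotypes are collected here, because the difference itself passed limma's test at an adjusted p under 0.05; their SE and adjusted p-values stand in the report. Groups of 3 were too small to look for single libraries that stand apart.

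Between SGT2ox and its wild type, the change by 3 h differed in the vacuolar invertase (-0.26 on the log2 scale), SUS1 (0.53), SUS3 (-0.32), sucrose phosphate synthase (-0.34) and beta-amylase Solyc09g091030 (-0.47). The change by 24 h differed in the vacuolar invertase (-0.59), SUS3 (0.55), sucrose phosphate synthase (-0.61) and the beta-amylases Solyc08g007130 (-0.54) and Solyc09g091030 (0.19). SUS3 changed sides, with a lower change in SGT2ox by 3 h and a higher one by 24 h. With library totals the calls at 3 h of SUS3 (-0.19) and of the vacuolar invertase (-0.12) ended. The call of Solyc09g091030 at 24 h ended without any of 6 of the 12 libraries concerned.

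Between SGT1ami and its wild type, the change by 3 h differed in the vacuolar invertase (-0.38), SUS3 (-0.30), sucrose phosphate synthase (-0.25) and the beta-amylases Solyc08g007130 (1.01) and Solyc09g091030 (-0.36). In the libraries labelled SGT1ami the change by 24 h differed in the vacuolar invertase (-0.23, a call that library totals ended), LIN6 (-0.69), SUS1 (-0.65), sucrose phosphate synthase (-0.25) and beta-amylase Solyc09g091030 (-0.24). At 24 h the gene taken for SGT1 was near its wild-type level in these libraries, and its part in these differences was not tested. The value of LIN6 was mostly its level at 0 h, 0.83 higher in SGT1ami.

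Between the SGT1ami wild type and the SGT2ox wild type, the change by 3 h differed in the vacuolar invertase (0.36), SUS3 (-0.52), sucrose phosphate synthase (-0.59) and the beta-amylases Solyc08g007130 (-2.50) and Solyc09g091030 (-1.38). By 24 h it differed in LIN6 (-0.56), SUS1 (-0.63), SUS3 (0.23, turned by library totals), sucrose phosphate synthase (-1.00) and the beta-amylases Solyc08g007130 (-5.83) and Solyc09g091030 (-0.20). Experiment and run cannot be told apart in these.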

How the results depend on the processing

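Over settings other than leaving out a library, 1574 values of the 7 genes kept their direction and side of the threshold, 17 lost their call with the same sign, 17 gained one with the same sign and 16 changed sign. The report names each call lost or gained, and those among the sign changes are named here. With library totals the sign changed for the vacuolar invertase at 3 h in the SGT2ox wild type (-0.28) and in SGT1ami (-0.02, no longer called) and between the wild types at 0 h (0.01). It changed for sucrose phosphate synthase from 3 to 24 h in the SGT2ox wild type (0.15, newly called) and by 24 h in the SGT1ami wild type (-0.46); for beta-amylase Solyc08g007130 by 24 h in the SGT1ami wild type (-0.11, no longer called). It changed for beta-amylase Solyc09g091030 from 3 to 24 h in SGT2ox (0.12, newly called). It also changed for SUS3 in SGT2ox against wild type at 0 h (-0.04) and in the wild types' difference of change by 24 h (-0.13, no longer called), and for SUS1 in that by 3 h (0.22). Library totals also cut the genes called in SGT1ami against wild type at 24 h to 3. Elsewhere the values that changed sign lay near 0 and were not called. They were the wild types' difference of change by 3 h in SUS1 (0.00 with TMM and with edgeR) and in LIN6 (-0.03 with a pseudocount of 5), that of SGT1ami by 3 h in SUS1 (-0.00 with a pseudocount of 5, -0.01 with DESeq2), and beta-amylase Solyc09g091030 from 3 to 24 h in SGT2ox (0.02 with DESeq2).

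Leaving out a library turned 20 values, none of them called: beta-amylase Solyc08g007130 and beta-amylase Solyc09g091030 from 3 to 24 h in SGT2ox (-0.01 to 0.05 and -0.06 to 0.02) and LIN6 in SGT2ox against wild type at 3 h (-0.14 to 0.13) and in the wild types' difference by 3 h (-0.13 to 0.12). The others were the vacuolar invertase between the wild types at 0 h (-0.02 to 0.00), beta-amylase Solyc09g091030 in SGT1ami against wild type at 0 h (-0.05 to 0.02) and SUS1 in the difference of SGT1ami by 3 h (-0.06 to 0.09). The genes called in SGT1ami against wild type at 24 h numbered 3 to 5.

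Replicate numbers did not pair the samples: same-numbered libraries had correlations of -0.05 to 0.02, 0 of 45 pairs in each experiment exceeded 0.1, and 4 of 18 and 2 of 18 libraries correlated best with their own number. With the number as a replicate block, all 175 values and 25 counts kept direction and call. Without the libraries labelled SGT1ami at 24 h, the 70 values that do not use them did so too. Depth limits LIN6 most, at 53 reads in its lowest library.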
